A study of Mus musculus with 7 samples.

Results

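The 6 genes Neurod1, Isl1, Pax6, Rfx6, Insm1 and Myt1 encode transcription factors that are shared by the hormone cells of the pancreatic islet. They were followed in islets of mice whose Gata6 gene carries floxed alleles, which Cre recombinase can cut. A gene was taken from the probe sets that the array annotation gives to that 1 symbol, at the probe set with the highest mean, which yielded all 6 of the 22180 named genes. The control group (Gata6 flox/flox, 3 arrays) carried no Cre. The group labelled Gata6 KO (Gata6 flox/flox;Pdx1-Cre, 4 arrays) carried Cre driven by the Pdx1 promoter, which is active in the epithelium that gives rise to acinar, duct and endocrine cells. Both groups were islets isolated with collagenase, each array a pool of 3 mice at 2 months of age. Cre was present in 1 group only, so its own effect cannot be told apart from that of the Gata6 alleles.

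The islet hormone cells descend from progenitors that briefly express Neurog3, and the 6 factors act below or beside it. NEUROD1 is a basic helix-loop-helix factor that binds E-boxes together with an E protein, ISL1 is a LIM-homeodomain factor that works with the adaptor LDB1, and PAX6 is a paired and homeodomain factor needed for hormone gene expression. RFX6 is a winged-helix factor needed for islet formation, INSM1 is a zinc-finger repressor that recruits the LSD1 and CoREST complex, and MYT1 is a zinc-finger factor of endocrine differentiation. All are also used by neurons or by other endocrine tissues.

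The signals are log2 units after RMA, in which 1 unit is a doubling. The hormone genes that define islets were bright on the control arrays, with Gcg at 11.98, Sst at 12.20, Ppy at 11.53 and Ins2 at 9.18, while acinar enzymes were brighter still (Ctrb1, 13.40). The signal of Gata6 itself was 4.60, 4.80 and 4.83 in the controls against 5.41, 5.35, 5.34 and 5.01 in the other group, so the targeted gene was not lower where the label says KO. The position of the probes relative to the floxed part was not used here, so this signal cannot serve as a check of the deletion, and directions below are those of the labels. Xist, which marks female cells, was low on control array 3 (1.34) and Gata6 KO array 3 (2.15) and between 5.02 and 5.60 on the others. The median difference of all genes between the groups was 0.17, and member differences are given unshifted unless stated.

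Of the 6 factors, 5 fell on the arrays labelled Gata6 KO (limma, threshold 0.05 for p adjusted by Benjamini and Hochberg across the 22180 genes), against 7.36% of all genes called lower and 17.4% called higher. Of all called genes 70.2% were higher, and 38.1% after each array was centred on its median. Rfx6, Pax6 and Isl1 fell by a factor of 3.72 to 6.37. Insm1 and Myt1 fell by a factor of 1.83 and 1.64, and Neurod1 did not pass at its probe set. Every array labelled Gata6 KO lay below every control array for 6 of the 6 genes, a pattern shown by 9.96% of all genes. Their median difference was -1.38. In whole islets, fewer endocrine cells and less RNA per cell cannot be told apart.

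Rfx6 showed the largest difference of the 6. Its control signals were 5.81, 5.59 and 5.64, and those of the arrays labelled Gata6 KO were 3.11, 3.11, 2.58 and 3.23. The groups were 2.36 units apart at their closest, and array 3 of the second group was the lowest. The difference was -2.67 (SE 0.22, 95% interval -3.13 to -2.21, limma adjusted p = 3.25e-06), and it ranked 72 among the 22180 genes from the most negative difference.

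Pax6 measured 5.89, 5.65 and 5.49 in the controls and 3.34, 3.50, 2.94 and 3.55 in the other group. Again the groups were far apart, by 1.94 units, and Gata6 KO array 3 was the lowest. The difference was -2.34 (SE 0.22, 95% interval -2.81 to -1.88, limma adjusted p = 8.90e-06). Isl1 measured 5.91, 5.67 and 5.56 in the controls and 3.54, 4.08, 3.38 and 4.28 in the other group. Its second group was more spread (SD 0.43 against 0.18 in the controls), with arrays 1 and 3 low and arrays 2 and 4 high. The difference was -1.90 (SE 0.24, 95% interval -2.42 to -1.37, limma adjusted p = 1.06e-04). For each of these 3 genes the exact two-sided permutation test gave p = 0.0286, the smallest that the 35 splits of 7 arrays allow.

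**Figure D1:**
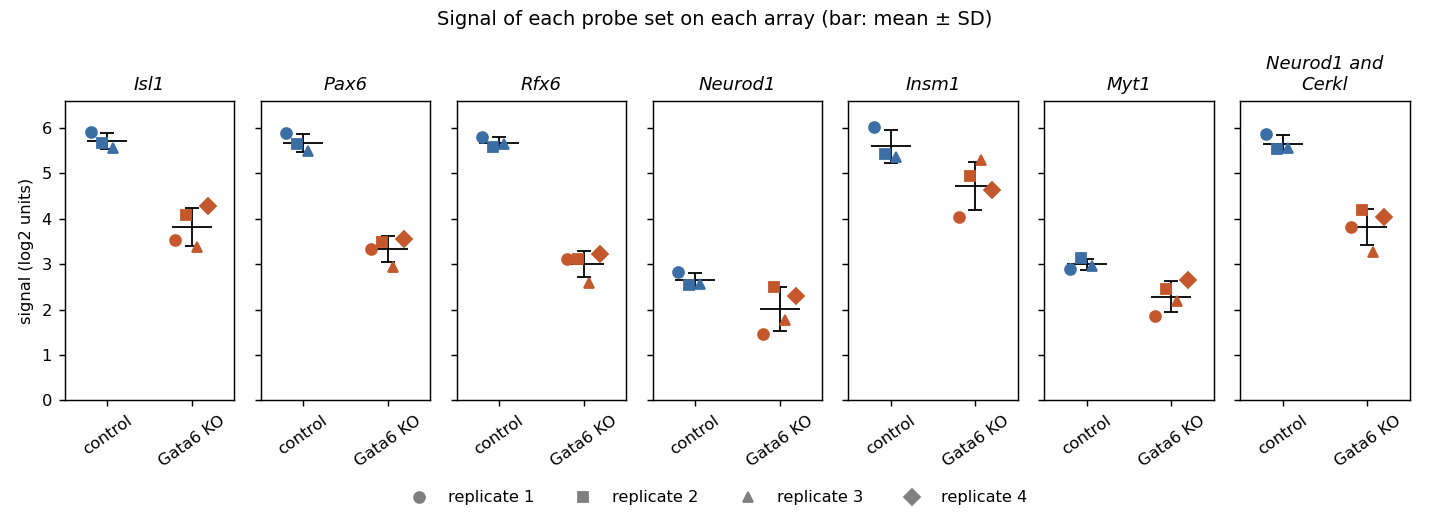
Signal in log2 units (vertical axis, from 0) of the 6 factors and of the probe set annotated with both Neurod1 and Cerkl, on 3 control and 4 Gata6 KO arrays; points are arrays, shapes are replicate numbers and bars are the mean ± SD. The groups of Isl1, Pax6 and Rfx6 are at least 1.28 units apart, while those of Neurod1 (0.04) and Insm1 (0.06) nearly touch.

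The bases just before the start of transcription are shown for these 3 genes, because they moved most and because GATA factors and NEUROD1-type factors read short sites of known letters. The windows are the 250 bases before a RefSeq start site of build GRCm38.p6, written on the gene's strand; Isl1 lies at chr13:116309689-116309938 on the minus strand, Rfx6 at chr10:51685268-51685517 on the plus strand, and Pax6 has a first window at chr2:105668646-105668895 and a second at chr2:105682213-105682462, both on the plus strand. Capitals mark matches to a GATA site (the letters AGATAA or TGATAA, and likewise AGATAG or TGATAG, on either strand) or an E-box (CANNTG).
Isl1: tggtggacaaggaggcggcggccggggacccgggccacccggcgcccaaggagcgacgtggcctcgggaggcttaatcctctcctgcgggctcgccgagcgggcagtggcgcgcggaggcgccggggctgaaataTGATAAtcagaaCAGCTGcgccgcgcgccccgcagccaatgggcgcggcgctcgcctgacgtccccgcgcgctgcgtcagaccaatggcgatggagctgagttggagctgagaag
Pax6, first window: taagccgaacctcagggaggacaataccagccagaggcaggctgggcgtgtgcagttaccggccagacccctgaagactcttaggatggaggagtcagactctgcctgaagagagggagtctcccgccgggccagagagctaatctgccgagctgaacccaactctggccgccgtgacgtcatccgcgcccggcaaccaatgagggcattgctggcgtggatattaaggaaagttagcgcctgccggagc
Pax6, second window: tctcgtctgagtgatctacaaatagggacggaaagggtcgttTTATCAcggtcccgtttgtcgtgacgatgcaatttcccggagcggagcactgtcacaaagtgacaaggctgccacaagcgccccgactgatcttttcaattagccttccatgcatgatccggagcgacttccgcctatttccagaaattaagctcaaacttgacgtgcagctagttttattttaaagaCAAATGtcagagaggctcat
Rfx6: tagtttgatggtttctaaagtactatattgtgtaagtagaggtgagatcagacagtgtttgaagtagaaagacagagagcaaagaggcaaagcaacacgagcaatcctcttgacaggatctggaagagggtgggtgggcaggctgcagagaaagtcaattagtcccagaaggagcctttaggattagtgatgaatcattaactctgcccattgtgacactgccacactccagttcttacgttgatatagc

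The Isl1 window held 1 GATA site, from 115 to 110 bases before the start, and 1 E-box, from 103 to 98 bases before it. The GATA site overlaps a TAAT core, the letters that many homeodomain factors read. The second Pax6 window held 1 GATA site on the opposite strand, 208 to 203 bases before the start, and 1 E-box. The first Pax6 window and the Rfx6 window held neither. Of all 32851 promoter windows of this length 26.5% held a GATA site and 66.2% an E-box, so each of these matches is common. The narrower E-box of the NEUROD1 type (CAGATG, either strand), held by 14.4% of all windows, was in no window of these 3 genes. The E-boxes marked above are thus matches to the general letters only. The half-site that RFX factors read (GTTGCC or GTTGCT, either strand) was held by 21.0% of all windows. It was present in the Rfx6 window, the first Pax6 window and, at 2 places, the Neurod1 window. The Isl1 window, the second Pax6 window and the 3 Myt1 windows held none. Windows were matched for 5 of the 6 genes.

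Insm1 was bright in the controls, at 6.02, 5.43 and 5.35, and measured 4.04, 4.95, 5.29 and 4.64 in the other group. Its highest array labelled Gata6 KO was array 3, which lay 0.06 below the lowest control and which was the lowest array for Rfx6, Pax6 and Isl1. The difference was -0.87 (SE 0.28, 95% interval -1.48 to -0.27, limma adjusted p = 0.0367; exact permutation p = 0.0571). The call was lost when any 1 control array was left out (adjusted p from 0.0532 to 0.177), without array 1 or array 4 of the other group (adjusted p = 0.0815 and adjusted p = 0.0606) and in a fit over all probe sets (adjusted p = 0.0918), among alternatives that ran from 0.0140 to 0.853. The last of these had the mean of an acinar gene list as covariate, which is nearly the group itself, and turned the difference to 1.21 (SE 1.65).

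Myt1 gave a low signal, 2.90, 3.13 and 2.96 in the controls and 1.85, 2.46, 2.18 and 2.65 in the other group. The groups were 0.25 apart. The difference was -0.71 (SE 0.23, 95% interval -1.21 to -0.22, limma adjusted p = 0.0364; exact permutation p = 0.0571). This call too was lost when any 1 control array was left out (adjusted p from 0.0838 to 0.129), without Gata6 KO array 1 or 3 (adjusted p = 0.0816 and adjusted p = 0.0721), over all probe sets (adjusted p = 0.0673) and on the 5 arrays with high Xist (adjusted p = 0.142), in a range from 0.00491 to 0.683 over all alternatives.

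Neurod1 was low at the probe set that carries its symbol alone, with 2.83, 2.54 and 2.56 in the controls and 1.47, 2.50, 1.77 and 2.31 in the other group. Array 2 of the second group lay 0.04 below the lowest control. The difference of -0.63 (SE 0.26, 95% interval -1.19 to -0.08) did not pass limma's test (adjusted p = 0.0872; exact permutation p = 0.0857), in a range from 0.00193, at the shared probe set described next, to 0.956 over the alternatives. It passed after centring each array on its median (adjusted p = 0.0217), where all 6 factors were called lower against 12.8% of all genes. It also passed limma's test after a repeated quantile normalization (adjusted p = 0.0170) and without Gata6 KO array 2 (adjusted p = 0.0430).

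A further probe set is annotated with Neurod1 together with its neighbour Cerkl, and it read differently. It measured 5.87, 5.54 and 5.56 in the controls and 3.81, 4.19, 3.28 and 4.04 in the other group, close to the pattern of Isl1. In a fit over all 41345 probe sets, of which 3.93% were called lower, its difference was -1.83 (SE 0.25, limma adjusted p = 0.00193). Neurod1 is transcribed from the minus strand of chromosome 2 in the RefSeq table. Among the 20 named probe sets on each side in the order of their identifiers, genes of known strand on that chromosome were on the plus strand in 28 of 35 cases around the single-symbol probe set, and on the minus strand in 30 of 31 around the shared one. For Rfx6, Pax6 and Isl1 the neighbours lay on the gene's own strand in 26 of 26, 31 of 32 and 23 of 25 cases, but for Myt1, on the plus strand, only in 17 of 30, so neighbours do not always share a gene's strand. Which transcript either Neurod1 probe set reads was not tested, and probe positions were not used here. A second probe set annotated with Elp4 and Pax6 had minus-strand neighbours in 29 of 29 cases while Pax6 is on the plus strand, and it differed by 0.69 (SE 0.28, adjusted p = 0.131) where Pax6 itself fell.

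**Figure D2:**
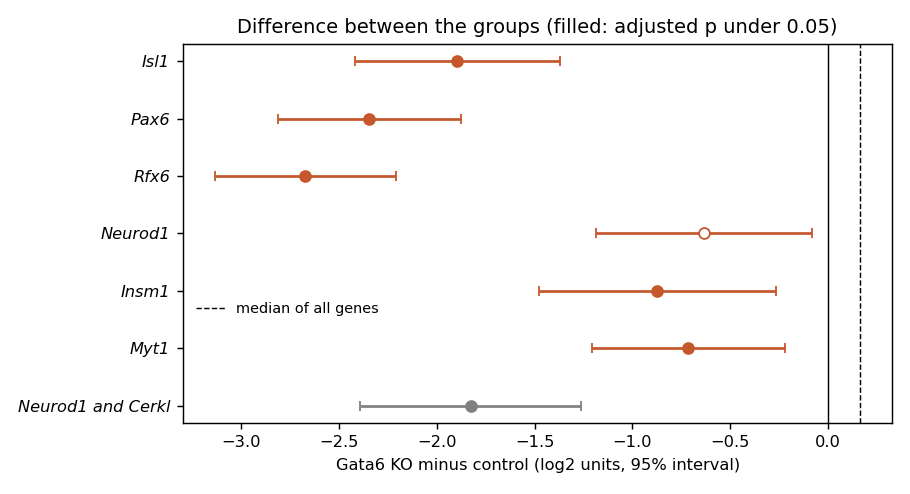
Difference Gata6 KO minus control in log2 units (horizontal axis) with its 95% interval from limma, for the 6 factors (orange) and the probe set annotated with Neurod1 and Cerkl (grey, fitted over all probe sets); filled points have an adjusted p under 0.05 and the dashed line is the median of all genes, 0.17. The intervals of Pax6 and Rfx6 lie wholly below those of Neurod1, Insm1 and Myt1.

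Among themselves the factors differed by unequal amounts. Taking 1 factor minus another on each array, 12 of the 15 pairs gave groups without overlap, against 34.1% of all pairs of the named genes. The 3 overlapping pairs were those among Neurod1, Insm1 and Myt1. The difference of Rfx6 exceeded that of Pax6 by 0.33, with array values for Pax6 minus Rfx6 from 0.24 to 0.40 against -0.15 to 0.08 in the controls, so the 2 genes differed by similar amounts on each array. Isl1 minus Rfx6 changed by 0.78, and Rfx6 minus Insm1 by -1.80, the latter ranging from -2.78 on array 3 to -1.01. Pairs with Neurod1 or Myt1 rest on probe sets of low signal, with control means of 2.65 and 3.00. The probe set shared with Cerkl differed by -1.83, against -1.90 for Isl1. How far Neurod1 and Isl1 differed thus depends on the probe set. These within-array differences were not tested.

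Endocrine secretory markers give a scale for these differences. The 14 genes read are common to islet hormone cells, such as the granins Chga and Chgb and the exocytosis gene Snap25. Of these 12 fell, against 7.36% of all genes called lower. The median difference of the 14 was -2.55, against 0.17 for all genes. Their mean per array ran from 7.18 to 7.53 in the controls and from 4.01 (array 3) to 5.65 (array 2) in the other group, a change of -2.27. Relative to that mean the value of Pax6 was -0.08 and that of Rfx6 -0.41, and both lay below every control on 3 of 4 arrays and above on array 3. The relative value of Isl1 was 0.37. Those of Neurod1, Insm1 and Myt1 were 1.63, 1.39 and 1.55, and they lay above every control on 4 of 4 arrays. The single-symbol Neurod1 probe set and Myt1 had low control means, 2.65 and 3.00, where the medians of the Gata6 KO arrays were 1.89 to 2.11. A fall of the markers' size may not be measurable at signals this low, which was not tested. The relative values of these 2 thus do not show a smaller loss of RNA. The control mean of Insm1 was higher, at 5.60. At the probe set shared with Cerkl the relative value was 0.44 in place of 1.63 for Neurod1, near that of Isl1. On array 3, where the markers were lowest, Insm1 stood 2.98 above its control mean on this scale. Without array 3 the relative values were -0.29 for Pax6, -0.61 for Rfx6, 0.18 for Isl1 and 0.87 for Insm1, while Neurod1 (1.37) and Myt1 (1.25) moved less, and the shared probe set was at 0.28. Without array 2 that of Pax6 was 0.07 and that of Rfx6 -0.23, and over all single arrays left out Pax6 ran from -0.29 to 0.07, so its sign is not settled. These relative values carry no test.

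**Figure D3:**
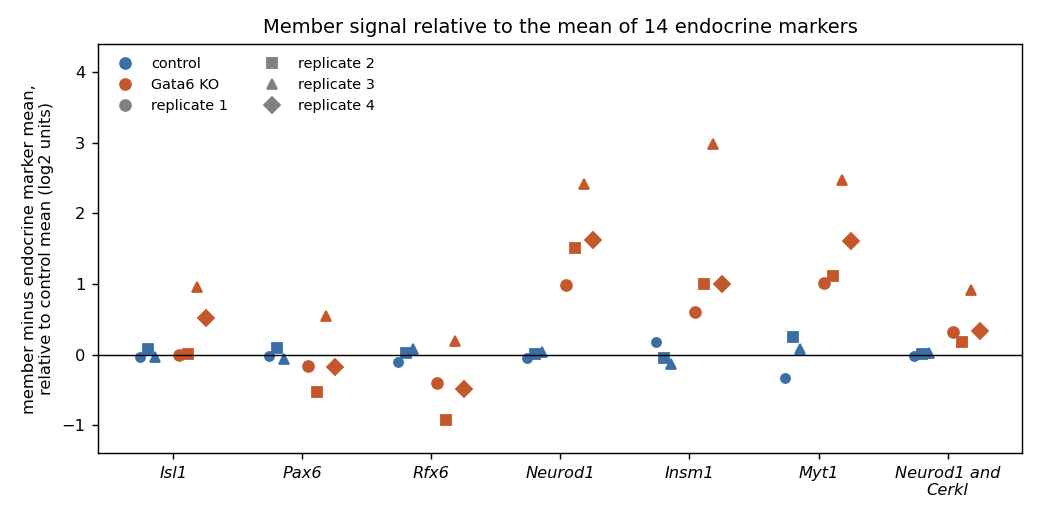
Signal of each factor, and of the probe set annotated with Neurod1 and Cerkl, minus the mean of 14 endocrine markers on the same array, relative to the control mean (vertical axis, log2 units); points are 3 control (blue) and 4 Gata6 KO arrays (orange), with shapes for replicate numbers. Isl1, Pax6 and Rfx6 scatter around 0 between -0.92 and 0.96, while the single-symbol Neurod1 probe set, Insm1 and Myt1 lie between 0.60 and 2.98 on the Gata6 KO arrays and the shared probe set between 0.18 and 0.91. The single-symbol Neurod1 probe set and Myt1 had low control means (2.65 and 3.00), where a fall of the markers' size may not be measurable.

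The other transcription factors of the islet and pancreas moved in both directions. Of 25 measured genes 11 fell, 1 rose and 13 did not pass, against 7.36% of all genes called lower and 17.4% higher. Their median difference was -0.51 against 0.17 for all genes. Nkx6-1, a beta-cell factor, differed by -2.42 (SE 0.26). Its signals of 7.26, 6.85 and 6.42 in the controls and 4.02, 4.76, 4.15 and 4.77 in the other group did not overlap. Nkx2-2, which acts with NEUROD1 in endocrine differentiation, differed by -1.98 (SE 0.24), Prox1 by -2.11 (SE 0.23) and Tshz1 by -1.86 (SE 0.26). The gene that rose was Ptf1a, the acinar lineage factor, by 1.12 (SE 0.23, adjusted p = 0.00316), named here after its value was seen. Neurog3, the progenitor factor upstream, was low in both groups, at 2.11 ± 0.06 (SD, n = 3) and 1.92 ± 0.19 (SD, n = 4), and did not pass (difference -0.19, adjusted p = 0.515).

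Relatives from the same gene families did not share this pattern as a group. Of 20 measured relatives 1 fell and 3 rose, with a median of 0.32. On arrays centred on their median 2 fell and 1 rose. There 12.8% of all genes were called lower, and 38.1% of all called genes were higher. Over all genes 7.36% were called lower and 17.4% higher before centring, so the uncentred counts were near those shares. The relative that fell was St18, of the MYT1 zinc-finger family. It measured 4.91, 4.93 and 4.45 in the controls and 2.67, 2.84, 1.92 and 2.43 in the other group, a difference of -2.30 (SE 0.25, limma adjusted p = 2.64e-05), while Myt1l, the third member of that family, differed by -0.54 and did not pass. The genes that rose, Isl2 (0.67), Pax7 (0.67) and Rfx4 (0.94), all had control means under 2.5 units. Rfx3, an islet relative of RFX6, differed by -0.38 (SE 0.22, adjusted p = 0.219).

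Partners and cofactors moved both ways, 3 lower and 4 higher of 21, with a median of -0.05. Over all genes 7.36% were called lower and 17.4% higher, so the number higher was near that share. On centred arrays 6 fell and 2 rose, where 12.8% of all genes were called lower and 38.1% of all called genes were higher. The acetyltransferase genes Ep300, a coactivator of NEUROD1, and Crebbp differed by -1.89 (SE 0.30, adjusted p = 4.72e-04) and -1.43 (SE 0.36, adjusted p = 0.0105). Array 3 was the lowest for both, at 3.15 and 4.28. Lmo4, a LIM-only protein that can bind LDB1, rose by 1.28 (SE 0.19, adjusted p = 3.57e-04), from 4.16, 4.32 and 4.25 to 5.62, 5.68, 5.44 and 5.36. Rest, the repressor of neuronal and endocrine genes, rose by 1.19 (SE 0.25, adjusted p = 0.00369), from 2.06, 1.94 and 2.36 to 3.09, 3.37, 2.91 and 3.87, and the groups did not overlap. The E-protein genes Tcf3, Tcf4 and Tcf12 differed by 0.07, 0.07 and 0.49, Ldb1 by -0.55 and Kdm1a, which encodes LSD1, by -0.47, and none of these 5 passed.

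Genes reported to depend on the 6 factors in islets fell almost throughout. Of 25 measured genes 23 fell, against 7.36% of all genes called lower, and 2, Ghrl and Sct, did not pass. The median difference of the list was -2.27. This list overlaps the islet hormone, secretory and beta-cell factor genes, and its members were known to be lower in these data when it was drawn up. The prohormone convertase inhibitor Pcsk1n, a gene that PAX6 is reported to regulate, measured 9.15, 8.80 and 8.58 in the controls and 4.94, 5.27, 4.85 and 5.74 in the other group (difference -3.64, SE 0.24). The fatty acid receptor Ffar1 differed by -2.58 (SE 0.23), the incretin receptor Glp1r by -2.58 (SE 0.24) and Abcc8, the regulatory subunit of the KATP channel, by -3.30 (SE 0.32). All 4 were lower on each array of the group labelled Gata6 KO than in any control, as were 9.96% of all genes. They were picked for the smallest p in the list, so their separation adds no support.

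**Figure D4:**
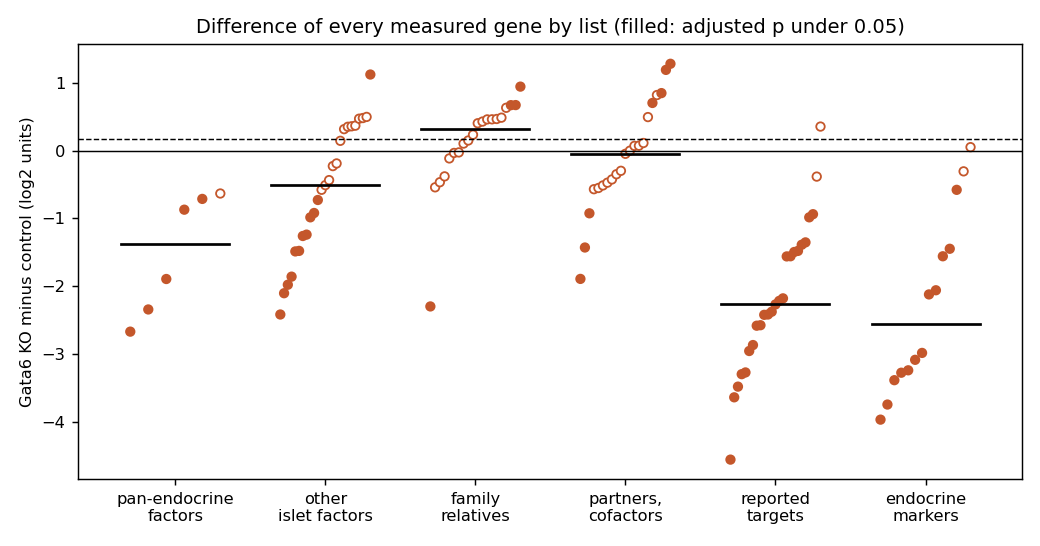
Difference Gata6 KO minus control (vertical axis, log2 units) of every measured gene in 6 lists, ordered by size within a list; filled points have a limma adjusted p under 0.05, thick bars are list medians and the dashed line is the median of all genes (0.17). The medians are -1.38 for the pan-endocrine factors, -0.51 for other islet factors, 0.32 for family relatives, -0.05 for partners, -2.27 for reported targets and -2.55 for endocrine markers.

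The genes whose 7 values lay closest to each factor were found by the root mean square difference of mean-centred log2 signals, a description over 7 arrays that mostly follows the group difference. Closest to Rfx6 were Gcnt2, a glycosyltransferase gene (0.05 units), the opioid peptide gene Pdyn (0.08) and Napepld, a lipid enzyme gene (0.09), and Pax6 was the 11th closest (0.18). Closest to Pax6 were the monoamine transporter gene Slc29a4 (0.12), Bicral (0.13) and Vat1l (0.13), and Rfx6 was the 17th. Closest to Isl1 were Reep2 (0.13), Gdap2 (0.15) and Erich3 (0.15), and the nearest other factor, Pax6, ranked 65 of the named genes. The genes closest to Neurod1, Insm1 and Myt1 were 0.10 to 0.21 away. These were Tlcd3b, Ggt7 and Vmn1r193 for Neurod1, Fam135b, Olfr1487 and Spindoc for Insm1, and Avpr1b, Ngp and Polr2l for Myt1. All 9 had control means under 3.20, where many genes show small differences of like size.

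Markers of other cells also differed between the groups. The counts below stand against 7.36% of all genes called lower and 17.4% called higher. Of 21 acinar genes 12 rose (Amy2b by 2.82, Spink1 by 1.90, Prss2 by 1.74, Cela3b by 0.98), and the list mean ran from 10.70 to 10.80 in the controls and from 11.42 to 11.62 in the other group. The brightest, Ctrb1 and Cela1 (control means 13.40 and 13.22), differed by 0.05 and 0.02 and did not pass. Both lay near the highest signal of all arrays, 13.545, where a rise may not be measurable. Of 10 ductal genes 4 rose and 2 fell, with Krt8, Muc1 and Krt18 at 1.37, 1.23 and 1.24 and Tspan8 at -1.68, and list means from 3.95 to 4.22 against 4.24 to 4.60. Of 12 mesenchymal genes 8 rose, with Col6a2, Col1a2, Col3a1, Col1a1 and Vim at 1.61, 1.62, 2.06, 1.86 and 1.09. Their list mean was 3.29 to 4.05 against 3.74 to 5.49, and Rgs5, a pericyte gene at 6.32 and 5.32, did not pass. Of 15 leukocyte genes 6 rose, among them Ltb, Cd8a, Itgam, Ms4a1 and Lyz2 (1.64, 1.26, 1.27, 1.39 and 2.57), with list means of 2.25 to 2.42 against 2.62 to 3.92, while C1qb did not pass (-0.24). Cd8a, Itgam and Ms4a1 were near the bottom of the scale, with control means of 1.46, 1.00 and 0.84. Of 12 endothelial genes 4 fell and 1 rose, with Esm1, Flt1, Kdr and Plvap at -2.23, -1.56, -1.30 and -1.41 and Egfl7 at 1.18. Their list mean was 4.32 to 4.70 against 3.74 to 4.31, and Eng did not pass (-0.68). The part of these cells in the differences of the 6 factors was not tested. A fit with the acinar list mean as covariate gives no such test, because group membership explained 97.3% of that mean's variance.

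Because several of the 6 factors are also used by neurons, neural and glial markers were read. Of 12 measured genes 2 fell, Th by -2.67 (SE 0.30) and Tubb3 by -1.21 (SE 0.25), against 7.36% of all genes called lower. The list mean was 2.37 to 2.50 in the controls and 1.94 to 2.36 in the other group. The glial marker Sox10 was at 2.07 and 2.47 and the cholinergic marker Chat at 1.55 and 1.58 in the controls and the other group, near the bottom of the scale. Immediate-early genes, which respond to tissue handling within minutes to hours, were lower too. Of 19 genes 11 fell and 2 rose, against 7.36% of all genes called lower and 17.4% called higher. Among those that fell, Egr1 differed by -3.69, Fos by -3.49, Zfp36 by -2.72 and Jun by -1.51. The list mean of the 19 genes was 4.50 to 5.15 in the controls against 3.57 to 3.91 in the other group. Their part in the differences of the 6 factors was not tested.

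**Figure D5:**
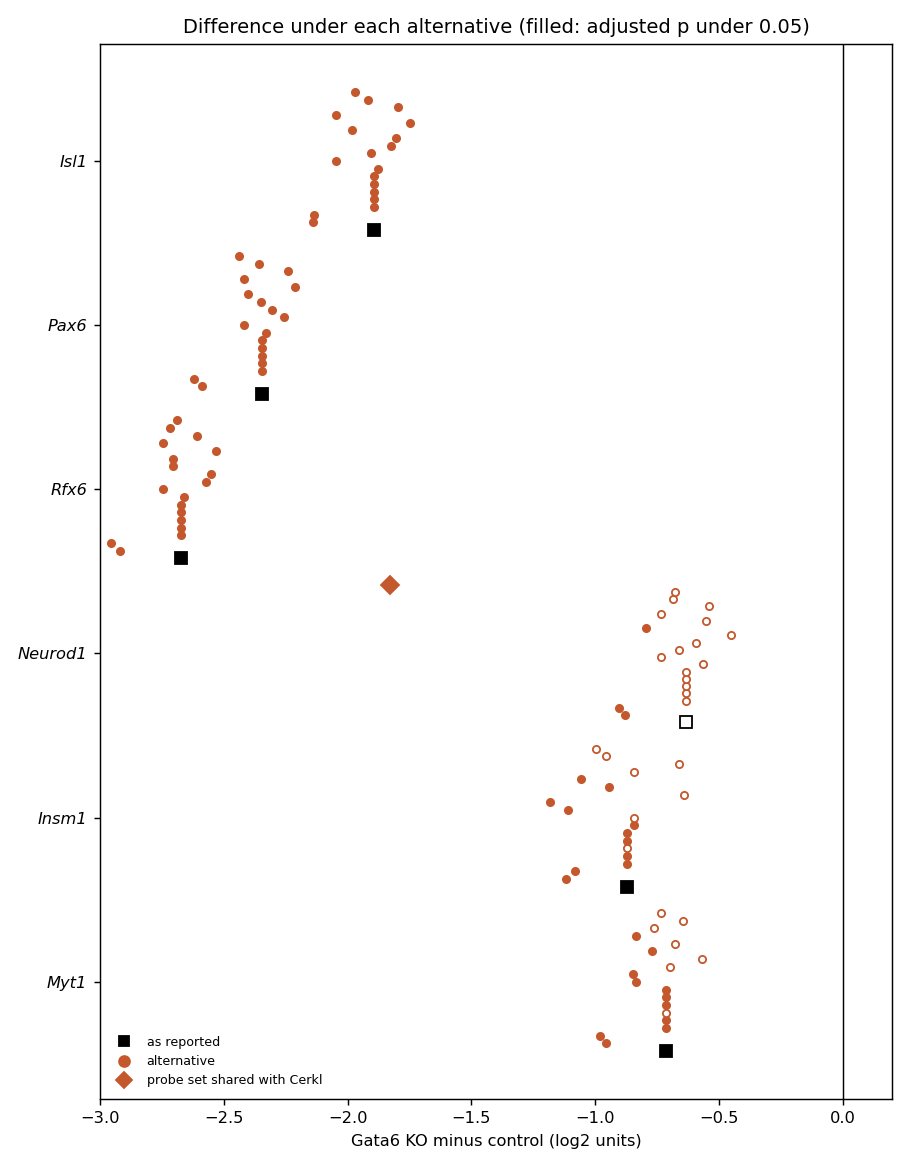
Difference Gata6 KO minus control (horizontal axis, log2 units) of each factor under every alternative except the acinar covariate; black squares are the reported values, circles the alternatives, the diamond the probe set shared by Neurod1 and Cerkl, and filled symbols have an adjusted p under 0.05. All symbols of Isl1, Pax6 and Rfx6 are filled, while those of Insm1, Myt1 and Neurod1 are partly open.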

How the data were processed

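Islet RNA of 3 control pools and 4 pools labelled Gata6 KO was read on whole-transcript Affymetrix arrays. The deposited log2 values were summarised by the authors with RMA (and Transcriptome Analysis Console, per the submitters' processing notes, which give no versions); base 2 is taken from RMA, and no genome build is given in the sources used here. They ran from -0.588 to 13.545, with array medians from 1.72 to 1.78 in the controls and 1.89 to 2.11 in the other group. Of 41345 probe sets 23521 had 1 symbol in the platform annotation, giving 22180 genes at the probe set with the highest mean. Groups were compared with limma 3.58.1 in R 4.3.3 (lmFit, eBayes with trend, two-sided, Benjamini-Hochberg over all genes, threshold 0.05). Exact permutation tests used 35 splits. P-values cover the spread between pools of 3 mice. On simulated data the fit recovered 42% of changes of 1 unit and 93% of changes of 2 units, with 2.17% of calls false. Differences under 1 unit, such as those of Neurod1, Insm1 and Myt1, can thus be missed. The simulated data held fewer changed genes than were called here, so these rates are only a guide. The 6 genes and all lists were chosen with earlier results of these data known. Named genes are the 6 factors, up to 4 genes of smallest p a list, the 2 brightest of each list of another cell type, the 3 closest to each factor and the islet checks; Ptf1a, Neurog3, Myt1l, Rfx3, Tcf3, Tcf4, Tcf12, Ldb1, Kdm1a, Ghrl, Sct, Sox10 and Chat were named after their values were seen. Same-numbered arrays correlated at 0.098, 0.004 and 0.115 after removal of group means, so the numbers were not taken as pairs. Promoters are from RefSeq, GRCm38.p6. The number of arrays limits the precision.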

Additional observations from a re-analysis of the deposited data

Results flagged for a closer look

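Of 98 named genes and list means screened for an array far from the other 3 of its group, 9 met the 95% limit of Dixon's test in the group labelled Gata6 KO, where chance gives about 5%. None of the 6 pan-endocrine factors was among them. Array 3 was the low one for Gcg (6.85), Crebbp (4.28), Ffar1 (3.23), Gcnt2 (2.15) and Xist (2.15). Array 4 was the low one for Gata6 (5.01) and Rgs5 (3.56) and the high one for the mean of the GATA list (3.47). Array 1 was the low one for Flt1 (3.11).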

How the results depend on the processing

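Isl1, Pax6 and Rfx6 kept direction and call in 18 of 19 alternatives each; with the mean of the acinar list as covariate their differences were -2.74, -2.42 and -3.23 without passing. That covariate left 0 of the 6 factors called in limma (1 at an unadjusted p under 0.05, and 7 genes in all), with Myt1 at -1.89 and Insm1 turned to 1.21; the group accounted for 97.3% of its variance, so these lost calls say nothing about the acinar part. Neurod1 passed after centring (-0.88), after a repeated quantile normalization (-0.90) and without Gata6 KO array 2 (-0.80). It also passed at the probe set shared with Cerkl (-1.83, chosen after seeing the data). Testing all probe sets left 3 factors called, without Insm1 (-0.87) and Myt1 (-0.71); the cause was not tested. With the replicate block Insm1 was at -0.84 and not called, 4 factors were called, and 5921 genes passed in place of 5486; of the 3 control arrays 2 correlated best with their own number. On arrays with high Xist Myt1 was at -0.70 and not called. Leaving out each array gave -0.80 to -0.45 for Neurod1, -1.06 to -0.64 for Insm1, -0.84 to -0.57 for Myt1, and 3 to 6 factors called. The share of called genes that were higher went from 70.2% to 38.1% after centring and 41.1% after quantile normalization. Without control array 1 or 2, 3265 or 3586 genes passed, and 3337 on arrays with high Xist. Of 209 other recomputed counts 178 stayed within 1.5 times. The values relative to the endocrine markers without each array, and at the shared probe set, were computed after seeing the data.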
